A study of Mus musculus with 15 samples.

Results

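Retinoic acid binding, synthesis, breakdown and receptor genes are described here in mouse embryonic stem (ES) cells and in 2 differentiated cultures made from them. The 8 genes were taken by name from the deposited expression table, which holds 18762 genes in 15 libraries. They are Crabp1, Crabp2, Aldh1a2, Dhrs3, Cyp26a1, Rara, Rarb and Rarg, and all 8 were in the table.

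Retinoic acid is made from vitamin A. Retinol is oxidised to retinal, and retinal dehydrogenases such as Aldh1a2 oxidise retinal to retinoic acid, while Dhrs3 reduces retinal back to retinol. Inside the cell the acid is carried by Crabp1 and Crabp2 and is broken down by Cyp26 hydroxylases. It acts by binding the nuclear receptors RARα, RARβ and RARγ, encoded by Rara, Rarb and Rarg, which pair with RXR receptors on DNA. In ES cells, added retinoic acid ends self-renewal and is widely used to direct cells to neural fates, and Cyp26a1 and Rarb are textbook targets of the receptors.

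The cells were of strain C57BL/6N. Wild type (WT) cells were compared with Mettl5-/- cells, here called KO; Mettl5 encodes the methyltransferase that places an m6A mark on 18S ribosomal RNA. Both genotypes were sampled as undifferentiated ES cells on day 0, as embryoid bodies (EBs) formed for 6 days without LIF on dishes coated to prevent attachment, and after 6 days in N2B27, a serum-free medium used to obtain neural cells. No retinoid treatment is named in the labels. Each culture had 2 WT libraries, titled Ctr (replicate 1) and WT (replicate 2), and 3 KO libraries. The labels do not say whether the titles stand for separate clones or separate cultures, and the p-values therefore cover only the spread among these libraries, which may be technical. All levels are FPKM, fragments scaled to transcript length and to the fragments mapped in the library, so that genes can be set side by side per length.

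The promoters of 2 of the genes carry the kind of element that the receptors bind. These sequences are shown because Cyp26a1 and Rarb have near-identical elements and very different levels in EBs. A search was made for direct repeats of the 4 half-sites AGGTCA and AGTTCA and GGGTCA and GGTTCA, in any combination, separated by 1, 2 or 5 bases, on both strands, in RefSeq promoter windows (build GRCm38.p6) from 250 bases before to 50 bases after each gene's start. Both stretches below read 5′ to 3′ on the strand of their gene, and the capitals mark the repeat with its 5-base spacer (DR5).
Rarb: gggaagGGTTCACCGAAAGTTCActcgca
Cyp26a1: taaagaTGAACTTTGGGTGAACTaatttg
The Rarb stretch is at chr14:16575507-16575535 on the minus strand. Its repeat ends 37 bases before the RefSeq start, and in the GENCODE annotation it lies in an exon of a transcript that starts further upstream. The Cyp26a1 stretch is at chr19:37697770-37697798 on the plus strand. Its repeat ends 16 bases before the start used for the window. It lies outside the gene in the GENCODE annotation but inside the wider RefSeq gene span, which begins further upstream. It runs on the opposite strand, where it reads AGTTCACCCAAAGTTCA. With positions counted from 1 at the 5′ end of each repeat on its own strand, 15 of 17 bases are identical, and the Cyp26a1 repeat differs from that of Rarb by G1A and G9C. Such a DR5 was found in 32 of 32851 windows (0.0974%), or in 31 of 27025 genes. Windows were at hand for 7 of the 8 genes, 13 windows in all, and none of these held a repeat with a 1-base or 2-base spacer, which occur in 0.222% and 0.268% of all windows. A match describes the letters of the window only.

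Mettl5 was measured first as a check of the labels. It stood at 20.85 and 19.03 FPKM in WT ES cells and at 10.65, 7.21 and 9.10 FPKM in KO ES cells. In EBs it was 17.70 and 19.79 FPKM in WT against 9.07, 5.22 and 5.41 FPKM in KO, and in N2B27 8.37 and 8.65 FPKM against 3.91, 6.41 and 3.29 FPKM. Every KO library was below every WT library of its culture, and Mettl5 fragments remained in all 9 KO libraries. Libraries of 1 genotype with the same replicate number are called a line, and their log2 values were averaged over the 3 cultures. Over these line means the KO minus WT difference was -1.11 ± 0.09 (SE) on the log2(FPKM + 1) scale (limma adjusted p = 0.00835). Within a culture it passed the test in EBs (-1.42 ± 0.23, 0.00576) but not in ES cells (-1.08 ± 0.23, 0.675) or N2B27 (-0.82 ± 0.23, 0.204). The EB call was lost without WT EB replicate 2 (0.0895) and in a fit of EB libraries alone (0.106). The line-mean call was lost without WT line replicate 2 (0.0645) and with no filter on low values (0.264), while without KO N2B27 replicate 2 the N2B27 difference passed (-1.05, 0.0217). Which part of the gene was deleted is not given in the sources used here.

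Libraries summed to 451651 to 554986 FPKM, with 10953 to 11807 genes at 1 FPKM or more. The lowest correlation between libraries of a group was 0.986. Some libraries correlated more with a library of another group than with the least similar of their own. For KO EB replicate 1 these values were 0.990 and 0.986, and for KO N2B27 replicate 2 0.993 and 0.989. Others did not, such as KO EB replicate 3 (0.987 and 0.989). The spacing of the lowest values gave a rough estimate of 16400000 to 18400000 fragments per library, although only 60.5 to 66.1% of the low values used came out whole at the best total, within 0.1 of a fragment. Of 8 pluripotency markers the summed level was 3446 to 3803 FPKM in ES cells, 1253 to 1741 FPKM in EBs and 169 to 273 FPKM in N2B27. The 8 neural progenitor markers summed to 22.4 to 26.5 FPKM in ES cells and 340 to 474 FPKM in N2B27, and the 8 primitive streak and mesoderm markers to 2.78 to 3.24 FPKM in ES cells and 21.6 to 113.7 FPKM in EBs. In bulk RNA, fewer cells of a type and less RNA per cell cannot be told apart. These markers move with every culture comparison below, and their part in it was not tested.

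**Figure D1:**
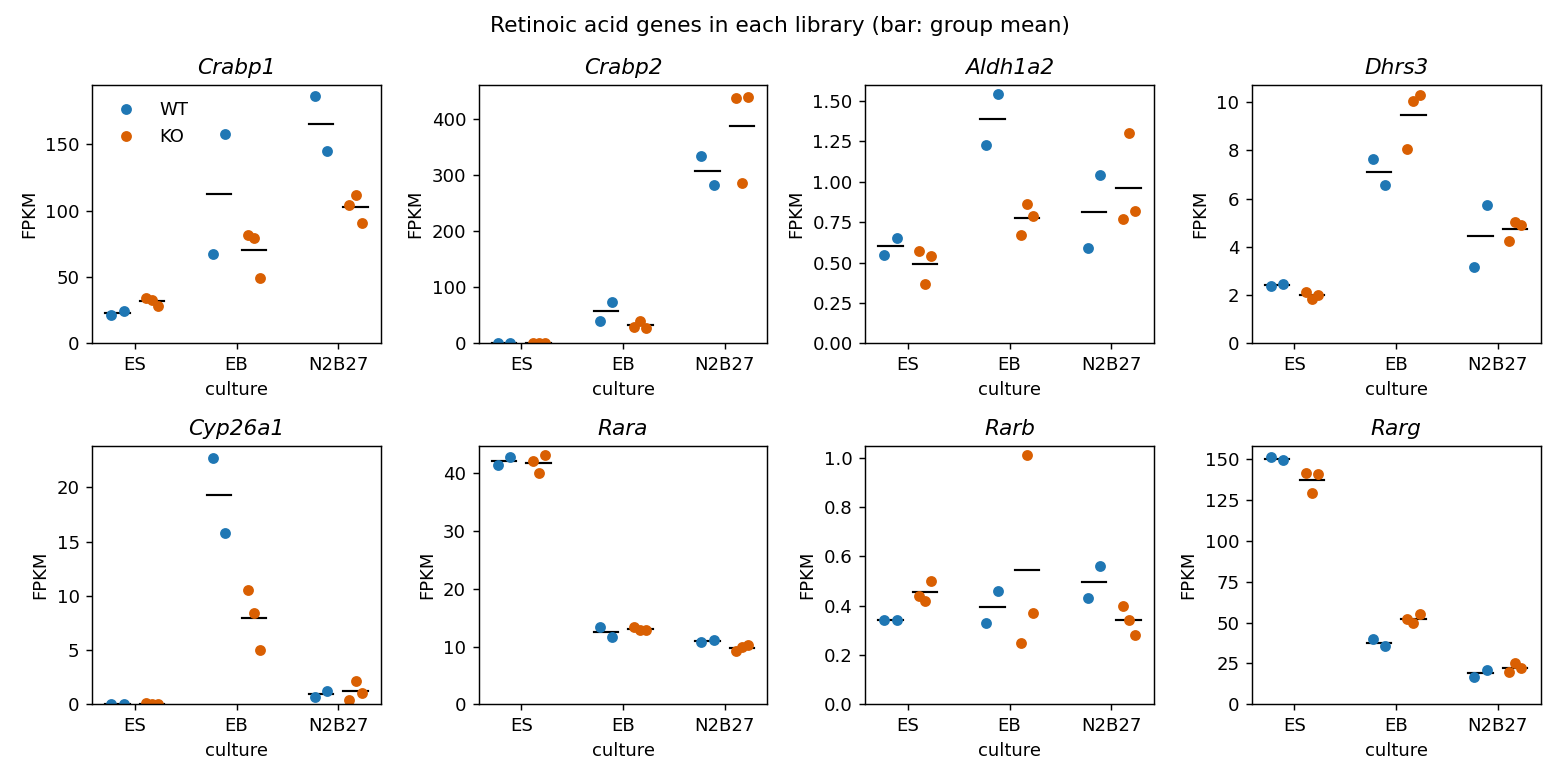
FPKM (y axis, linear, from 0) of each of the 8 genes in every library, by culture (x axis); each point is 1 library, WT in blue and KO in orange, and the bar is the group mean. Crabp1 and Crabp2 were lowest in ES cells, Cyp26a1 stood out in EBs at 4.98 to 22.71 FPKM, Rara and Rarg were highest in ES cells, and Rarb reached 1 FPKM in only 1 library.

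Both carrier genes rose on differentiation, and Crabp2 reached the highest FPKM of the 8 genes. Crabp2 (chromosome 3, 4 exons), whose protein delivers retinoic acid to the nuclear receptors, stood at 1.36 and 1.57 FPKM in WT ES cells and at 0.82, 1.21 and 1.51 FPKM in KO ES cells. In EBs it reached 40.02 and 74.45 FPKM in WT and 29.81, 39.55 and 26.85 FPKM in KO. In N2B27 it was 332.91 and 282.00 FPKM in WT and 436.68, 285.79 and 437.95 FPKM in KO. The 3 cultures did not overlap in either genotype. On the log2(FPKM + 1) scale, which understates changes of genes with low values, Crabp2 rose by 4.50 ± 0.27 in WT EBs and by 3.92 ± 0.22 in KO EBs over ES cells (limma adjusted p = 7.94e-09 and 2.60e-09). From EBs to N2B27 it rose by a further 2.47 ± 0.27 in WT (3.62e-06) and 3.54 ± 0.22 in KO cells (6.28e-09). In order of mean level, KO N2B27 (387 FPKM) and WT N2B27 (307 FPKM) came first and overlapped, followed by WT EBs (57.2 FPKM), KO EBs (32.1 FPKM), WT ES cells (1.47 FPKM) and KO ES cells (1.18 FPKM), the last pair overlapping.

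Crabp1 (chromosome 9, 4 exons), whose protein binds retinoic acid in the cytosol, was already well above Crabp2 in ES cells. It was at 21.69 and 24.42 FPKM in WT ES cells and at 34.35, 32.78 and 28.51 FPKM in KO ES cells. In EBs it was 67.13 and 157.56 FPKM in WT and 81.40, 79.47 and 49.36 FPKM in KO. N2B27 cultures held 186.30 and 144.49 FPKM in WT and 104.51, 111.92 and 90.71 FPKM in KO. The pair of WT EB libraries lay further apart than any other pair of this gene's WT libraries, and the KO EB libraries fell around the lower of them. Crabp1 rose from ES cells to EBs by 2.11 ± 0.30 in WT and 1.08 ± 0.25 in KO cells (limma adjusted p = 3.71e-05 and 0.00150), and from ES cells to N2B27 by 2.78 ± 0.30 and 1.65 ± 0.25 (1.34e-06 and 2.54e-05). Between EBs and N2B27 the difference did not pass in WT (0.67 ± 0.30, 0.0737) or KO cells (0.57 ± 0.25, 0.0532). Without WT EB replicate 2, which left 1 WT EB library, the WT difference was 1.28 and passed. In KO cells the difference passed without KO EB replicate 1 (0.69, 0.0389) or replicate 2 (0.68, 0.0427). It also passed there in a fit of the compared groups alone (0.57, 0.0246) and with the replicate block (0.57, 0.0383). With TPM scaling the difference passed in both WT (0.84, 0.0210) and KO cells (0.80, 0.00712). By mean the order was WT N2B27, WT EBs, KO N2B27, KO EBs, KO ES cells and WT ES cells. Neighbours overlapped among the first 3 groups, and from KO N2B27 downward no group overlapped with the next. WT EBs and KO N2B27 changed places with TPM scaling.

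Of the genes that act on retinal, the synthesising enzyme gene Aldh1a2 stayed low in every culture and the reductase gene Dhrs3 was above it in all 15 libraries. Aldh1a2 (chromosome 9, 14 exons), the main retinoic acid synthesising enzyme of the early mouse embryo, did not exceed 1.54 FPKM in any library. ES cells held 0.55 and 0.65 FPKM in WT and 0.57, 0.37 and 0.54 FPKM in KO. EBs held 1.23 and 1.54 FPKM in WT and 0.67, 0.86 and 0.79 FPKM in KO, and N2B27 0.59 and 1.04 FPKM in WT and 0.77, 1.30 and 0.82 FPKM in KO. The highest level was thus in WT EBs, but the KO N2B27 libraries reached into it. Aldh1a2 rose in WT EBs over ES cells (0.57 ± 0.15, limma adjusted p = 0.00492), and the difference in KO EBs did not pass (0.25 ± 0.12, 0.0928) except in a fit of the compared groups alone (0.0351). From WT EBs to WT N2B27 it fell by 0.40 ± 0.15 (0.0361), a call lost without WT EB replicate 2 (-0.31, 0.190) or WT N2B27 replicate 1 (-0.22, 0.304), with a pseudocount of 0.1 (0.0526), with TPM scaling (0.0964) and in a fit of the compared groups alone (0.0897). In KO N2B27 it rose over ES cells by 0.39 ± 0.12 (0.0111), a call lost without KO ES replicate 2 (0.0501) or KO N2B27 replicate 2 (0.27, 0.0571). With values this low the pseudocount sets the size: with 0.1 in place of 1 the rise in WT EBs was 1.08 and that in KO N2B27 0.83.

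Dhrs3 (chromosome 4), which encodes the retinal reductase, rose in both differentiated cultures and was highest in EBs. It stood at 2.37 and 2.47 FPKM in WT ES cells and at 2.13, 1.86 and 1.99 FPKM in KO ES cells. In EBs it was 7.62 and 6.54 FPKM in WT and 8.05, 10.04 and 10.28 FPKM in KO, and in N2B27 3.17 and 5.75 FPKM in WT and 4.24, 5.03 and 4.92 FPKM in KO. No EB library overlapped with a library of another culture. The rise to EBs was 1.24 ± 0.18 in WT and 1.80 ± 0.15 in KO cells (limma adjusted p = 4.14e-05 and 1.17e-07), and the rise from ES cells to N2B27 0.63 ± 0.18 and 0.94 ± 0.15 (0.00569 and 3.95e-05). N2B27 was below EBs by 0.60 ± 0.18 in WT (0.0105) and by 0.86 ± 0.15 in KO cells (0.000117). The WT N2B27 pair differed most: without replicate 1 the WT rise to N2B27 was 0.98 and the WT fall from EBs was lost (-0.26, 0.188), and without replicate 2 the rise was lost (0.29, 0.121) and the fall was -0.95. The WT fall was also lost without WT EB replicate 1 (-0.51, 0.0770) and in a fit of the compared groups alone (0.0726).

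Cyp26a1 (chromosome 19, 7 exons), which encodes the hydroxylase that breaks down retinoic acid, was highest in EBs, low in N2B27 and near 0 in ES cells. ES cells held 0.03 and 0.06 FPKM in WT and 0.09 and 0.06 FPKM in KO replicates 1 and 3, and the gene was listed at 0 in KO ES replicate 2. EBs held 22.71 and 15.83 FPKM in WT and 10.52, 8.44 and 4.98 FPKM in KO. N2B27 held 0.63 and 1.23 FPKM in WT and 0.41, 2.11 and 1.05 FPKM in KO. All EB libraries were above all libraries of the other cultures. Cyp26a1 rose in EBs over ES cells by 4.26 ± 0.32 in WT and 3.05 ± 0.26 in KO cells (limma adjusted p = 8.67e-08 and 2.19e-07), and it fell by 3.39 ± 0.32 and by 2.06 ± 0.26 from EBs to N2B27 (1.13e-06 and 8.80e-06). N2B27 stood above ES cells by 0.87 ± 0.32 in WT (0.0269) and 0.99 ± 0.26 in KO cells (0.00353). That WT call was lost without WT ES replicate 1 (0.85, 0.0899), WT ES replicate 2 (0.89, 0.0778) or WT N2B27 replicate 2 (0.64, 0.173), and with no filter on low values (0.0617). Because ES levels were near 0, a pseudocount of 0.1 gave larger rises, 7.05 in WT and 5.74 in KO EBs and 2.77 and 2.91 in N2B27, and TPM scaling raised those in N2B27 to 1.42 and 1.56.

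Of the receptor genes, Rara and Rarg fell on differentiation and Rarb stayed low throughout. Rarg (chromosome 15), the most abundant RAR gene in every library, was at 151.64 and 149.35 FPKM in WT ES cells and at 141.57, 129.44 and 141.22 FPKM in KO ES cells. EBs held 39.75 and 35.65 FPKM in WT and 52.19, 49.84 and 55.35 FPKM in KO, and N2B27 16.95 and 20.92 FPKM in WT and 19.83, 25.17 and 22.11 FPKM in KO. The cultures formed 3 steps without overlap, ES cells above EBs above N2B27. From ES cells Rarg fell by 1.97 ± 0.11 in WT and by 1.37 ± 0.09 in KO EBs (limma adjusted p = 6.28e-09 and 1.82e-08) and by 2.93 ± 0.11 and by 2.57 ± 0.09 in N2B27 (3.53e-11 and 7.42e-12). The step from EBs to N2B27 was -0.96 ± 0.11 in WT (8.10e-06) and -1.20 ± 0.09 in KO cells (5.96e-08).

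Rara (chromosome 11) fell as well, mostly between ES cells and the differentiated cultures. It was at 41.54 and 42.91 FPKM in WT ES cells and at 42.24, 40.06 and 43.12 FPKM in KO ES cells. In EBs it was 13.42 and 11.73 FPKM in WT and 13.32, 12.95 and 12.89 FPKM in KO, and in N2B27 10.73 and 11.20 FPKM in WT and 9.28, 9.87 and 10.27 FPKM in KO. Both differentiated cultures lay far below ES cells and close to each other. From ES cells Rara fell by 1.67 ± 0.08 in WT and by 1.61 ± 0.07 in KO EBs (limma adjusted p = 1.59e-09 and 1.75e-10), and by 1.85 ± 0.08 and by 1.99 ± 0.07 in N2B27 (1.48e-10 and 4.38e-12). From EBs to N2B27 it fell in KO cells (-0.38 ± 0.07, 0.000187, and -0.18 with TPM scaling, 0.0473), and the WT difference did not pass (-0.18 ± 0.08, 0.0792) except without WT EB replicate 2 (-0.27, 0.0313) or with no filter on low values (0.0470).

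Rarb (chromosome 14, 8 exons), the receptor gene that retinoic acid itself induces in many cells, stayed near the floor. ES cells held 0.34 and 0.34 FPKM in WT and 0.44, 0.42 and 0.50 FPKM in KO. EBs held 0.33 and 0.46 FPKM in WT and 0.25, 1.01 and 0.37 FPKM in KO, and N2B27 0.43 and 0.56 FPKM in WT and 0.40, 0.34 and 0.28 FPKM in KO. The highest value, in KO EB replicate 2, stood alone, and the gene did not pass the filter of 1 FPKM in at least 2 libraries, so 7 of the 8 genes were tested. With no filter none of the 13 contrasts of Rarb passed, and the smallest limma adjusted p was 0.314, for KO N2B27 minus KO EBs. The DR5 shown above for Rarb thus belongs to a gene below 1 FPKM in 14 of 15 libraries, and that of Cyp26a1 to a gene that varied from 0 to 22.71 FPKM. In ES cells Cyp26a1, at 0.09 FPKM or less, stood below Rarb. In N2B27 the 2 genes overlapped, Cyp26a1 at 0.41 to 2.11 FPKM and Rarb at 0.28 to 0.56 FPKM.

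Over the culture comparisons, 5 of the 7 genes tested rose and 2 fell from ES cells to EBs in WT. Of all 12929 genes tested, 35.8% rose and 23.6% fell there, 59.4% in all. In KO cells 4 rose and 2 fell, against 36.2% and 28.5% of all genes, or 64.7%. From ES cells to N2B27, 4 rose and 2 fell in WT, against 41.5% and 29.2%, or 70.7%. In KO cells 5 rose and 2 fell, against 43.5% and 33.2%, or 76.6%. From EBs to N2B27, 1 rose and 4 fell in each genotype, against 31.2% and 25.3% of all genes in WT, or 56.5%, and 38.8% and 29.6% in KO, or 68.5%. Most genes of the table thus differed between cultures, and the members' counts are read against that. The median over the 7 genes was 1.24 for WT EBs and 0.63 for WT N2B27 over ES cells, against 0.11 and 0.12 over all genes. Comparisons that share a group of libraries are not independent of each other.

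**Figure D2:**
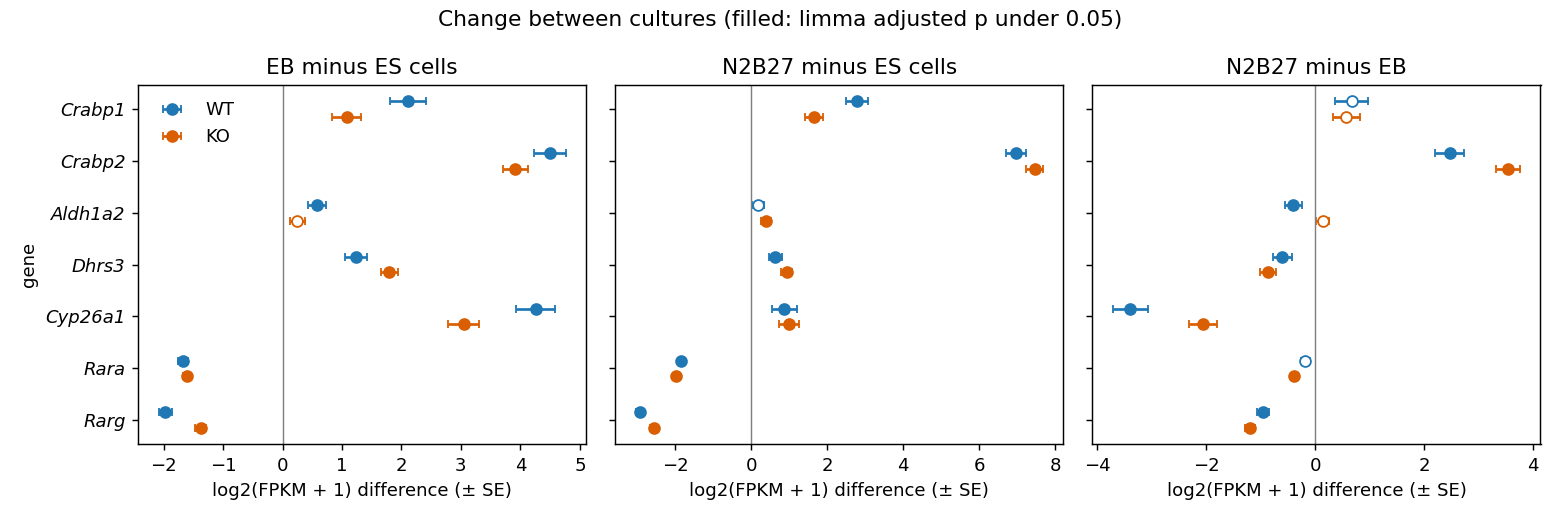
Difference between cultures in log2(FPKM + 1) (x axis, ± SE) for the 7 genes tested (y axis), WT in blue and KO in orange; filled points had a limma adjusted p under 0.05. Crabp2 lies farthest to the right in N2B27, at 6.96 in WT and 7.46 in KO cells, Cyp26a1 moves right in EBs and left from EBs to N2B27, and Rara and Rarg lie left of 0 in all 3 panels.

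In the genotype comparison, which asks what loss of Mettl5 changed in each culture, EBs were the only culture with called differences among these genes. Mettl5 itself did not pass in ES cells (-1.08, limma adjusted p = 0.675) or N2B27 (-0.82, 0.204). A missing call in those cultures therefore does not show that a difference is absent. In EBs the called genes were as follows. Cyp26a1 was lower in KO EBs and Rarg higher, 1 gene in each direction of the 7 tested, where 1.62% of all genes were called lower and 0.65% higher, 2.27% in all. Cyp26a1 averaged 7.98 ± 2.80 FPKM (SD, n = 3) in KO EBs against 19.3 ± 4.9 FPKM (SD, n = 2) in WT EBs, and every KO library was below both WT libraries. The difference was -1.21 ± 0.30 with a limma adjusted p of 0.049997, on the edge of the threshold of 0.05. That call was lost with a pseudocount of 0.1 (0.258), no filter (0.108), a stricter filter (0.0542), TPM scaling (0.0795), median-ratio scaling (0.0668) and a fit of EB libraries alone (0.202). It was also lost without WT EB replicate 1 (-0.96, 0.242), WT EB replicate 2 (-1.45, 0.142), KO EB replicate 2 (-1.27, 0.0614) or KO EB replicate 3 (-0.94, 0.194).

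Rarg averaged 52.5 ± 2.8 FPKM (SD, n = 3) in KO EBs and 37.7 ± 2.9 FPKM (SD, n = 2) in WT EBs, without overlap, a difference of 0.47 ± 0.10 (limma adjusted p = 0.0337). It remained above the level of N2B27 in both genotypes. The call was lost with no filter (0.0535), with TPM scaling (0.43, 0.0595), in a fit of EB libraries alone (0.179), and without WT EB replicate 1 (0.54, 0.0702), WT EB replicate 2 (0.39, 0.296) or KO EB replicate 3 (0.43, 0.146). In ES cells the order was the opposite, with all KO libraries below both WT libraries, and that difference did not pass (-0.13 ± 0.10, 1).

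Of the other genes in EBs, Crabp2 (-0.77 ± 0.24, limma adjusted p = 0.139) and Aldh1a2 (-0.43 ± 0.14, 0.154) had all KO libraries below both WT libraries, and Dhrs3 had all of them above (0.37 ± 0.16, 0.313). Crabp1 overlapped (-0.58 ± 0.28, 0.349), and so did Rara (0.05 ± 0.08, 0.810). None of these differences passed the test with all libraries, and 5 of the 7 genes, Cyp26a1 and Rarg included, had an unadjusted limma p under 0.05, against 14.7% of all genes. KO and WT libraries did not overlap for 5 of the 7, where that held for 26.5% of all genes. For Crabp2 the nearest libraries were 40.02 FPKM in WT and 39.55 FPKM in KO EBs, and with median-ratio scaling the genotypes overlapped. WT EB replicate 1 was the lower WT library for both carriers, and without it 1 WT EB library was left. In that fit Crabp1 (-1.19) and Crabp2 (-1.21) passed as lower in KO EBs, while Cyp26a1 and Rarg did not pass. The median over the 7 genes was -0.43, against -0.04 over all genes. These genes, and the lists below, were chosen with earlier results of these data known. Their counts and medians beside those of all genes therefore describe the set, here and in the other comparisons, and do not test it.

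Markers of other cell types moved with the EB comparison, in which 1.62% of all genes were called lower and 0.65% higher. The marker calls below were not run under the alternatives. With EB libraries alone the calls over all genes fell from 293 to 19. Primitive streak and mesoderm markers summed to 87.2 to 113.7 FPKM in WT EBs and 21.6 to 75.9 FPKM in KO EBs, with 5 of 8 lower in KO (Mesp1, Hand1, Kdr, Tbx6 and Foxf1). Endoderm markers summed to 36.6 to 49.1 FPKM and 17.7 to 25.8 FPKM, with 2 of 7 tested lower (Gata4 and Sox7), and Afp was listed at 0 in both WT EB libraries. Trophoblast markers summed to 204 to 234 FPKM and 125 to 182 FPKM, with Hand1, which is on both lists, and Cdx2 lower, and 1 of 4 fibroblast markers tested, Col1a1, was lower. The 8 pluripotency markers summed to 1253 to 1260 FPKM in WT and 1477 to 1741 FPKM in KO EBs, and the 8 neural progenitor markers to 93.1 to 113.3 FPKM and 73.9 to 89.3 FPKM, with no marker of either list called. The part of these markers in the values of Cyp26a1 and Rarg was not tested.

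In ES cells none of the 7 genes was called by limma between genotypes, where 0% of all genes were called, and none had an unadjusted p under 0.05, against 3.46% of all genes. The genotypes did not overlap for 3 of the 7, against 24% of all genes. All 3 KO libraries lay above both WT libraries for Crabp1 (0.45 ± 0.28, adjusted p = 1) and below them for Dhrs3 (-0.19 ± 0.16, 1). In N2B27 none of 7 was called, against 0.101% of all genes, and 2 had an unadjusted limma p under 0.05, against 8.85% of all genes. The genotypes did not overlap for 2 of the 7, against 22.1% of all genes, namely Crabp1 and Rara, and also for Rarb, which was not tested. Rara was lower in all KO libraries (-0.15 ± 0.08, adjusted p = 0.616). Crabp1 in N2B27 had all KO libraries below both WT libraries (102 ± 11 FPKM, SD, n = 3, against 165 ± 30 FPKM, SD, n = 2) with a difference of -0.68 ± 0.28 (adjusted p = 0.471), and Rarg stood at 0.23 ± 0.10 (0.543). The 8 neuron markers summed to 490 to 589 FPKM in WT N2B27 and 400 to 557 FPKM in KO N2B27, with none called, and endoderm markers to 31.3 to 47.9 FPKM and 16.0 to 31.8 FPKM, with 6 of 7 tested below 0, a median of -0.70, 5 at an unadjusted limma p under 0.05 and none called. The part of these markers in the Crabp1 values was not tested. Over line means none of 7 was called, against 0.0541% of all genes, and 3 had an unadjusted p under 0.05, against 11.6% of all genes. The largest of these was Cyp26a1 at -0.36 ± 0.11 (limma adjusted p = 0.253).

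**Figure D3:**
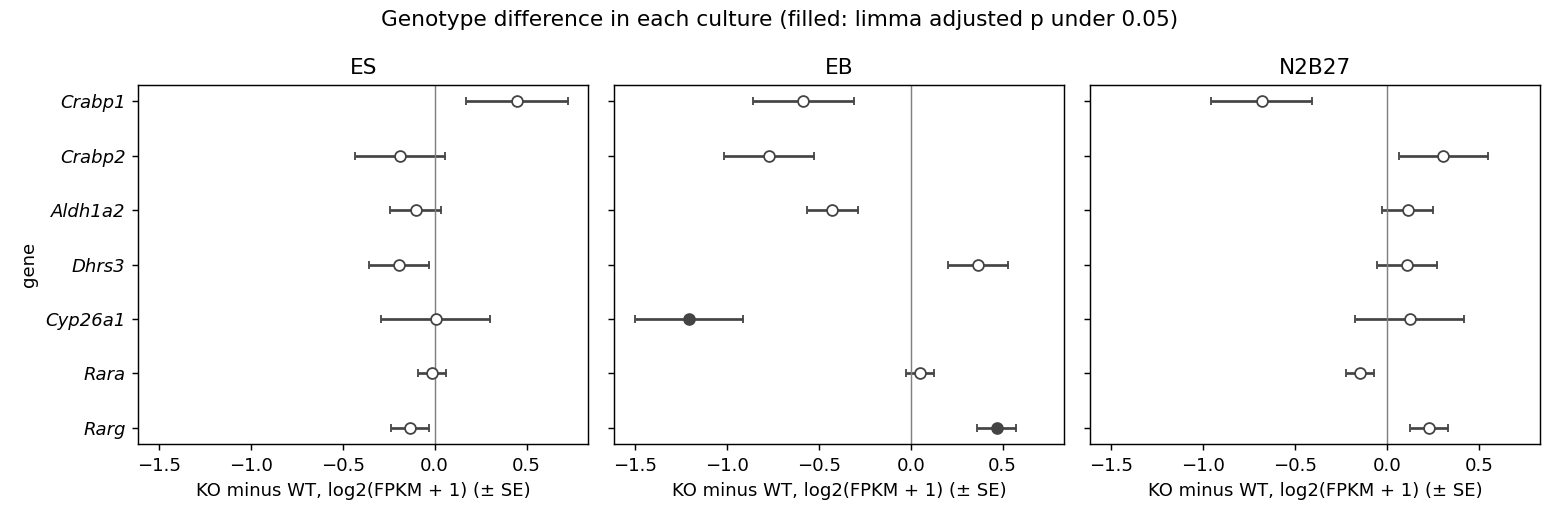
KO minus WT difference in log2(FPKM + 1) (x axis, ± SE) for the 7 genes tested (y axis) in each culture; filled points had a limma adjusted p under 0.05. The only filled points are Cyp26a1 (-1.21) and Rarg (0.47) in EBs, and Crabp1 lies right of 0 in ES cells and left of it in EBs and N2B27.

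Whether differentiation changed the genes by a different amount in KO cells was tested directly as the difference of the 2 changes. None of the 7 genes passed in the change from ES cells to EBs, where 0.155% of all genes passed, nor in that from ES cells to N2B27 (0.00773%) or from EBs to N2B27 (0.441%). At an unadjusted limma p under 0.05 there were 4, 2 and 3 of the 7 genes, against 7.66%, 4.8% and 10% of all genes. The smallest adjusted p was that of Rarg, whose fall to EBs was shallower in KO cells by 0.60 ± 0.15 (unadjusted p = 0.00113, adjusted 0.165). Cyp26a1 followed at -1.21 ± 0.42 for ES cells to EBs (0.396) and 1.33 ± 0.42 for EBs to N2B27 (0.216), and Crabp2 stood at 1.08 ± 0.34 for EBs to N2B27 (0.226).

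The rest of the pathway was read from 7 lists of 75 genes, of which 59 passed the filter. Their counts are read against the shares of all genes given above, 35.8% higher and 23.6% lower in WT EBs, 36.2% and 28.5% in KO EBs, and 41.5% and 29.2% in WT N2B27. Of the 7 binding and transport genes tested, 6 rose in EBs of either genotype, among them Lrp2, an endocytic receptor for retinol carriers (3.24 ± 0.21 in WT and 3.34 ± 0.17 in KO), and Fabp5, a fatty acid carrier that also binds retinoic acid (2.45 ± 0.19 and 2.02 ± 0.15). In WT N2B27, 4 of the 7 rose over ES cells and 1 fell, and the retinol transporter gene Stra6 went from 0.08 and 0.06 FPKM to 6.42 and 6.70 FPKM.

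Of 9 genes of retinol and retinal metabolism tested, 3 rose and 3 fell in WT EBs, and 4 rose and 2 fell in WT N2B27. Rdh10, which oxidises retinol to retinal in the embryo, rose in WT N2B27 by 2.55 ± 0.21, from 1.90 and 2.24 FPKM to 13.03 and 21.98 FPKM, and Akr1b3, an aldo-keto reductase gene, fell by 1.36 ± 0.17. Aldh1a1 and Aldh1a3, the other retinal dehydrogenases with a known part in retinoic acid synthesis, did not pass the filter. Aldh1a1 was listed at 0 in all ES libraries and reached 0.86 FPKM in KO N2B27, and Aldh1a3 did not exceed 0.21 FPKM. The other hydroxylase genes, Cyp26b1 and Cyp26c1, were both called higher in EBs of either genotype. Cyp26b1 rose by 0.88 ± 0.18 in WT EBs, to 0.51 and 1.27 FPKM, and by 0.39 ± 0.15 in KO EBs (limma adjusted p = 0.0334). The KO call was lost without KO ES replicate 1 (0.0725), 2 (0.0757) or 3 (0.0625) and without KO EB replicate 1 (0.0793) or 2 (0.0931). The WT rise was 0.59 without WT EB replicate 2. Cyp26c1 was listed at 0 in all KO ES libraries and at 0.04 and 0 FPKM in WT ES cells, so no fold is given.

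Among the 10 partner and other nuclear receptor genes, 8 rose and 1 fell in WT N2B27 over ES cells, led by the orphan receptor genes Nr2f1 (3.56 ± 0.23), Nr2f2 (3.21 ± 0.20) and Nr6a1 (2.91 ± 0.11), while Rara and Rarg fell there. Of the 14 corepressors and coactivators, 6 rose and 3 fell. The coactivator gene Ncoa3 fell by 1.87 ± 0.09, from 46.64 and 44.77 FPKM to 11.97 and 11.56 FPKM. Of 16 genes known to be induced by retinoic acid in mouse ES or embryonal carcinoma cells, 11 rose and 3 fell in WT EBs, and 9 rose and 3 fell in WT N2B27. Hoxb1 and Hoxb2, anterior Hox genes, rose in WT EBs (2.33 ± 0.29 and 2.54 ± 0.27) but stood at 0.16 FPKM or less in WT N2B27. Stra8, a germ cell gene first found by its induction with retinoic acid, fell in WT EBs by 2.95 ± 0.20, from 39.24 and 40.27 FPKM to 3.61 and 5.03 FPKM, and was listed at 0 in both WT N2B27 libraries.

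Between genotypes, 3 of the 59 genes were lower in KO EBs and 1 was higher, against 1.62% and 0.65% of all genes. Below 0 lay 48 and above it 11, where 61% of all genes were below, and the median was -0.13 against -0.04 over all genes. Cyp26c1 was 1.42 and 1.64 FPKM in WT EBs and 0.72, 0.60 and 0.40 FPKM in KO EBs (-0.69 ± 0.11, limma adjusted p = 0.00424), a call lost without WT EB replicate 2 (0.0779). Zfp703, a transcriptional repressor gene, was at 11.14 and 9.45 FPKM against 6.78, 4.30 and 2.72 FPKM (-1.07 ± 0.21, 0.0166), lost without either WT EB replicate (0.106 and 0.101). Meis2, a homeobox gene, was at 6.06 and 8.38 FPKM against 4.25, 4.91 and 3.15 FPKM (-0.69 ± 0.17, 0.049997), lost without WT EB replicate 1 (0.0505) or replicate 2 (0.414), KO EB replicate 1 (0.0632) or KO EB replicate 3 (0.198). Stra8 went the other way, at 3.61 and 5.03 FPKM against 6.83, 13.14 and 8.79 FPKM (0.96 ± 0.18, 0.0136), lost without WT EB replicate 1 (0.112) or KO EB replicate 3 (0.0522). With a fit of EB libraries alone all 4 calls were lost, at 0.135, 0.255, 0.281 and 0.252 in the order given, and with a pseudocount of 0.1 those of Cyp26c1 (0.125), Meis2 (0.0859) and Stra8 (0.0621). The Meis2 call was also lost with no filter (0.0955), a stricter filter (0.0542) and median-ratio scaling (0.0722). No pathway gene was called between genotypes by limma in ES cells or N2B27. Over line means Gata6, an endoderm factor gene, was lower in KO (-0.60 ± 0.07, limma adjusted p = 0.0301). That call was lost with no filter (0.264) and without KO line replicate 1 (0.109) or 3 (0.09998). Without WT line replicate 1 or 2, which left 1 WT line, the call did not hold either, at differences of -0.60 and -0.61. Gata6 is also on the endoderm marker list, of which 3 of 7 tested were called lower over line means (median -0.47), against 0.0541% of all genes called.

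**Figure D4:**
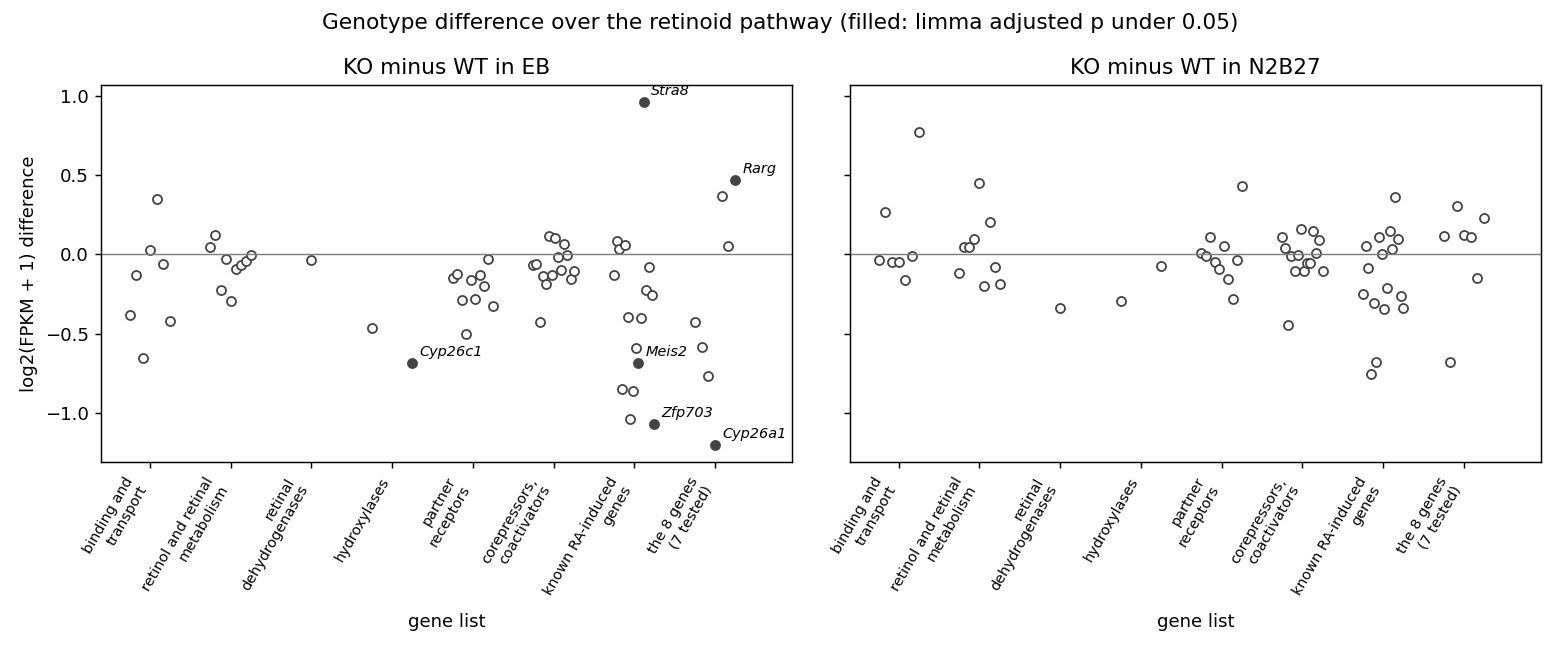
KO minus WT difference in log2(FPKM + 1) (y axis) in EBs (left) and N2B27 (right) for the 59 pathway genes tested and 7 of the 8 genes described here, by list (x axis); each point is 1 gene, filled where the limma adjusted p was under 0.05. In EBs Cyp26c1, Meis2, Zfp703 and Cyp26a1 are filled below 0 and Stra8 and Rarg above, and in N2B27 no point is filled.

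The genes varied together across the 15 libraries in the way the cultures did, and the following correlations of log2(FPKM + 1) describe that, since libraries of a group share their culture. Crabp2 and Rarg ran opposite (Pearson r = -0.99), Rara and Rarg together (0.95), Crabp1 with Crabp2 (0.91), and Dhrs3 with Cyp26a1 (0.86). The 3 genes of all 12929 most like a member by r were Mpdz, Cxadr and Wls for Crabp2 (0.998 for each), Hsd11b2, Tox2 and Vgf for Crabp1 (0.963 to 0.966), and Fam212a, Gata3 and Foxf1 for Aldh1a2 (0.861 to 0.885). For Dhrs3 they were Acadl, Igsf1 and Prss8 (0.981 to 0.986). The naive pluripotency factor gene Klf4 stood beside Ass1 and Ncoa3 as most like Rara (0.996 to 0.999), and Cdk5rap1, Tcea3 and Ssbp4 were most like Rarg (0.992 to 0.995).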

How the data were processed

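Poly(A) RNA of 15 libraries was measured. Per the submitters' processing notes Bowtie2, RSEM and mm10 were used; roles, versions and annotation are not given in the sources used here. The deposited table holds FPKM values, which the authors scaled to transcript length and mapped fragments. No count test was run, and depth was only estimated, so no counting interval is given. From these values log2(FPKM + 1) was computed and fitted with limma 3.58.1 in R 4.3.3, with a trend, as means of 6 groups over all 15 libraries (9 residual degrees of freedom), or over 5 line means (3 degrees of freedom). Genes with 1 FPKM or more in at least 2 libraries were tested (12929 of 18762). P-values were adjusted by Benjamini-Hochberg over all genes tested, and 0.05 was the threshold for 13 contrasts. Alternatives were a pseudocount of 0.1, no filter, a filter of 5 libraries, TPM and median-ratio scaling, fits of the compared groups alone, line as a block, and each library left out. The fit was run on simulated data with independent noise and the same spread in all groups. Unequal spread between cultures and shared deviations of a line were not simulated. Sequences are RefSeq's (GRCm38.p6), gene models GENCODE's, searched and plotted with Python 3.11.15. Gene symbols that a spreadsheet had turned into dates were restored by Entrez ID (27).

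The 8 genes and all lists were chosen with earlier results of these data known. Their counts and medians beside those of all genes are therefore descriptions and not tests of the lists. Named were Mettl5, the 8 genes, pathway genes called between genotypes, up to 3 called genes per list and direction in a culture comparison, and the 3 genes most correlated with each member; some genes that this rule names, and the most correlated genes of Cyp26a1, are not reported here. Lists fixed for markers were neural crest and neuron besides those reported; in EBs no gene of either was called between genotypes.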

Additional observations from a re-analysis of the deposited data

Results flagged for a closer look

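For 4 of the 8 genes every KO library lay on one side of both WT libraries in one culture and on the other side in another. Of all 12929 genes tested, 5.72% had this pattern in at least 1 pair of cultures, and of the 7 members tested 3. For Rarg the KO libraries were below WT in ES cells and above in EBs, and the difference of the changes was 0.60 (SE 0.15, limma adjusted p = 0.165). Dhrs3 showed the same sides, with a difference of 0.56 (SE 0.23, limma adjusted p = 0.545). Crabp1 was above WT in ES cells and below in N2B27, with a difference of -1.13 (SE 0.39, limma adjusted p = 0.907). Rarb, which did not pass the filter on low values, was above WT in ES cells and below in N2B27, with a difference of -0.27 (SE 0.22, limma adjusted p = 1 with no filter). None of the 4 differences passed after adjustment. Groups of 2 or 3 libraries were too small for a check of single outlying libraries.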

How the results depend on the processing

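No call of the members reversed under any alternative run: of 1149 values 1106 kept their side of the threshold, 31 lost a call and 12 gained one. The 2 calls in KO against WT EBs became 1 with a pseudocount of 0.1, with a stricter filter and with median-ratio scaling, and 0 with no filter, with TPM scaling and with the compared libraries alone; leaving out a library gave 0 to 2. The 5 calls from EBs to N2B27 in WT became 3 with the compared libraries alone and 3 to 6 without a library. Over all genes, KO against WT gave 0 calls in ES cells (447 genes at an unadjusted limma p under 0.05), 10 with no filter and 0 to 4 without a library. In EBs there were 293 calls, 181 with a pseudocount of 0.1, 19 with the compared libraries alone and 56 to 383 without a library. In N2B27 there were 13 calls, and 7 with a pseudocount of 0.1, 73 with no filter, 3 with TPM scaling, 8 with median-ratio scaling, 0 with the compared libraries alone and 0 to 249 without a library. The 7 calls over line means became 0 with no filter, 16 with a stricter filter, 13 with TPM scaling and 1 to 42 without a line. For the difference of the changes, 20 calls from ES cells to EBs became 1 with a pseudocount of 0.1, 34 with no filter, 9 with a stricter filter, 7 with the replicate block and 1 to 69 without a library. From ES cells to N2B27, 1 call became 0 with a pseudocount of 0.1, 11 with no filter, 2 with TPM scaling, 0 with median-ratio scaling, 0 with the compared libraries alone and 0 to 32 without a library; from EBs to N2B27, 57 calls became 19 with a pseudocount of 0.1, 17 with the compared libraries alone and 18 to 245 without a library. The cause of these changes was not tested. Where a group was left with 1 library, that library was taken to vary like the other groups. Scaling moved the median of all genes by over 0.1 in 5 culture comparisons, by -0.14 to 0.22, and the share of higher calls among EB calls between genotypes was 28.7% as deposited, 18.7% with TPM and 41.7% with median-ratio scaling; in N2B27 it was 46.2%, 66.7% and 75%, and for the difference of the changes from ES cells to EBs it was 10% as deposited and 23.8% with median-ratio scaling; from ES cells to WT EBs it went from 60.3% to 49.7% with median-ratio scaling, and from EBs to N2B27 from 55.3% to 68.8% in WT and 56.7% to 71.1% in KO with TPM scaling. The order of the 6 group means changed for 2 of 8 genes with TPM and 1 with median-ratio scaling. Across cultures of a genotype, deviations of libraries with the same replicate number correlated at -0.18 to 0.27, and those with different numbers at -0.27 to 0.24. The numbers were not taken as pairs in the group fit, but the line means did take them as units. With 2 WT libraries per culture the WT correlations come in pairs of opposite sign, so these ranges cannot show that pairing is absent. With the replicate block 1 member call was gained, Crabp1 from EBs to N2B27 in KO cells (0.57, limma adjusted p = 0.0383).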
